A study of Homo sapiens with 30 samples.

Results

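The comparison described here is that of global run-on libraries labelled hNABP2 KO made with nucleotides (with NTP) against libraries of the same label made without them (no NTP). It uses 6 of the 30 libraries of the series, and 18 of the 30 are run-on libraries. The 6 were taken by their labels, 3 with NTP and 3 with no NTP, and were paired by repeat number. Earlier results of these data were known when the groups were chosen. All 6 came from nuclei of HT1080, a human fibrosarcoma cell line, at passage 10 to 15, grown in DMEM with fetal bovine serum. The group with NTP carries the hNABP2 (hSSB1)-KO label and received nucleotides in the run-on reaction. The group with no NTP carries the same label, and the reaction lacked them. Both groups were pulled down with an antibody to BrdU and made with a directional library kit, and neither received another treatment. The sources used here do not say how the knockout was made or whether it is 1 clone. The protocol in the labels speaks of 2 experiments while 3 repeats are listed, so every p-value below measures only the spread between these libraries, which may be technical.

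In a global run-on, nuclei are supplied with nucleotides, one of them a bromouridine analogue, and RNA polymerases already engaged on DNA extend their transcripts. The labelled RNA is then captured, so that reads mark active polymerases and not the stored RNA of the cell. RNA polymerase I makes the large ribosomal RNA precursor, polymerase II makes messenger RNA and most long non-coding RNA, and polymerase III makes transfer RNA and short structural RNAs such as RMRP, RN7SK and RN7SL1. Libraries made without NTP serve as the background of the assay. hNABP2, encoded by NABP2, is a single-stranded DNA binding protein of the SOSS complex.

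The libraries were shallow. The totals of counts assigned to genes with NTP were 19581, 6581 and 115923 in repeats 1, 2 and 3, and with no NTP they were 10544, 8397 and 79429. Repeat 3 of each group was thus several times deeper than the others, and the library with NTP was the deeper of its pair in repeats 1 and 3. A single count is worth between 8.63 and 152 CPM (a count scaled to the library total), depending on the library. NABP2 itself had 4, 3 and 15 counts with NTP in repeats 1, 2 and 3, and 3, 2 and 3 counts with no NTP, so the counts do not show its loss. Its paralogue NABP1 had 2, 0 and 9 counts with NTP and 1, 0 and 4 with no NTP. The 26475 genes of the table do not say which part of NABP2 the knockout would remove, and counts over the whole gene check the label only in part.

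Markers of the cell line were present. All 23 markers of fibrosarcoma and mesenchymal cells had a count in at least 1 library, and together they held 0.349% to 1.64% of counts with NTP and 0.387% to 1.58% with no NTP. COL5A1, a fibrillar collagen chain, led them with 45, 96 and 170 counts with NTP and 54, 118 and 140 with no NTP. The upper end of both ranges was repeat 2, where the list had 108 counts with NTP and 133 with no NTP. Most of these were COL5A1, so the other markers had few counts in that repeat. VIM, the intermediate filament protein vimentin, had only 17, 3 and 15 counts with NTP and 5, 1 and 9 with no NTP. Of markers of other cells, the 8 epithelial markers held 0.0311% to 0.194% of counts with NTP and 0.0227% to 0.285% with no NTP, mostly in the keratin gene KRT8, and EPCAM was at or near 0 everywhere. The 7 leukocyte markers had no count in repeats 1 and 2 of either group, and in repeat 3 they held 0.0207% with NTP and 0.00881% with no NTP. The 7 neural markers held at most 0.0613%, and the 4 erythroid markers had at most 1 count in any library. The part of these RNAs in the differences below was not tested.

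With NTP, a larger share of counts lay in protein-coding genes and a smaller share in antisense long non-coding RNA and in polymerase III RNA, in each of the 3 repeats. Protein-coding genes held 75.7%, 72.7% and 88.3% of counts with NTP in repeats 1, 2 and 3, and 64.5%, 69.3% and 87.8% with no NTP. The group ranges overlapped, because repeat 3 lay above the others in both groups. Within repeats, the library with NTP was higher by 11.2, 3.38 and 0.486 percentage points, or 5.01 ± 5.53 points (SD, n = 3), and the 95% Clopper-Pearson intervals of the 2 libraries were apart in all 3 repeats. The two-sided exact sign-flip permutation test over the 3 repeats gave p = 0.25, the smallest value it can give, and 0.688 after Benjamini-Hochberg adjustment over the 11 classes. The mean difference was 2.53 points without the 10 most counted genes and 1.93 without repeat 1. These intervals cover counting error only and treat every count as an independent draw. The reads carry no molecular identifiers, so copies of 1 molecule could not be told apart and the intervals may be too narrow.

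**Figure D1:**
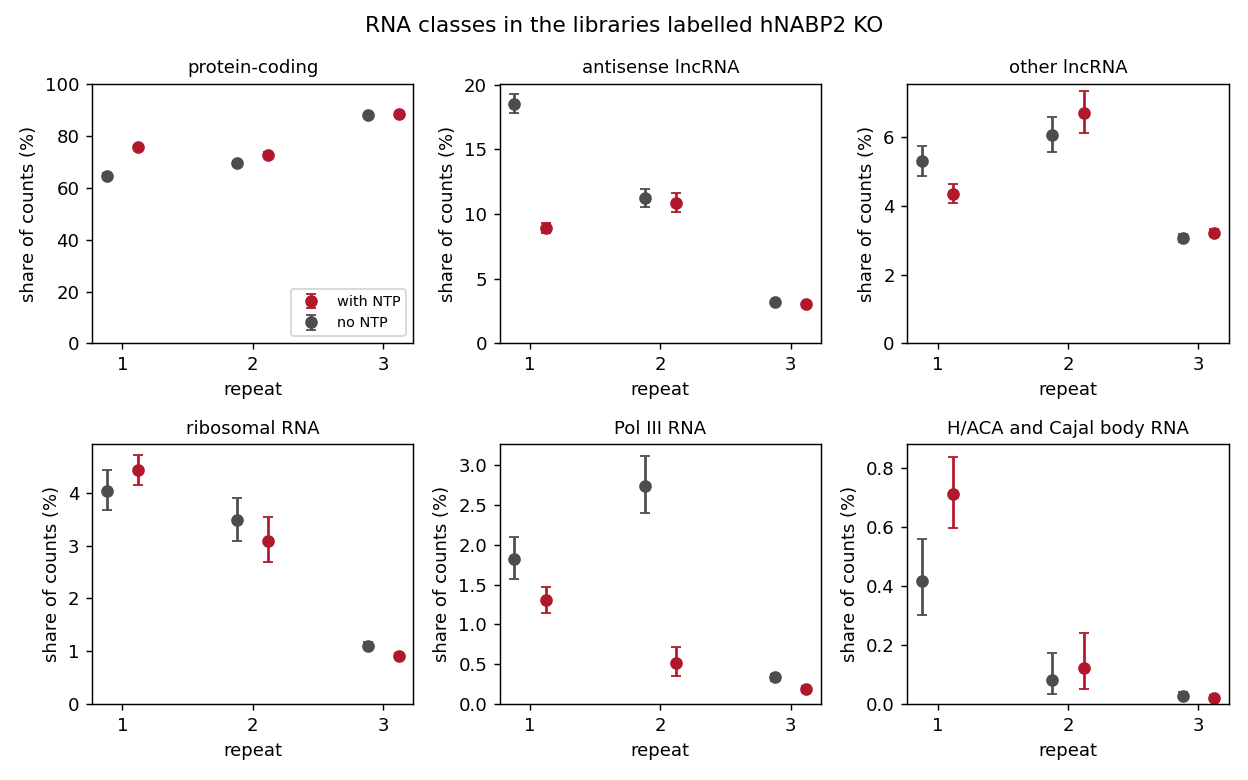
Share of each library's counts (y axis, percent) in 6 RNA classes by repeat (x axis), in the libraries labelled hNABP2 KO with NTP (red) and no NTP (grey). Points are single libraries and bars their 95% Clopper-Pearson intervals. In the Pol III panel the red point lies below the grey one in all 3 repeats (differences of -0.519, -2.22 and -0.140 percentage points), and in the ribosomal panel the order changes between repeats.

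Polymerase III RNA showed the largest ratio among these classes. It held 1.30%, 0.517% and 0.196% of counts with NTP in repeats 1, 2 and 3, and 1.82%, 2.74% and 0.336% with no NTP. Every library with NTP was below its partner, 1.40-fold, 5.30-fold and 1.72-fold, with intervals apart in all 3 repeats, although the ranges of the groups overlapped. The mean log2 ratio was -1.22 ± 1.04 (SD, n = 3), and the exact sign-flip test again gave its smallest p of 0.25. Its mean difference was -0.960 points, and -0.329 without repeat 2. RMRP gave most of this mean difference, with a mean share of 0.275% with NTP and 1.11% with no NTP, against 0.672% and 1.63% for the class. Of the 79 genes of the class, 15 had a count. Without RMRP the class held 0.868%, 0.198% and 0.124% with NTP and 0.360%, 0.988% and 0.222% with no NTP, which put the library with NTP higher in repeat 1 and lower in repeats 2 and 3.

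RMRP is the RNA subunit of the RNase MRP endoribonuclease, which takes part in ribosomal RNA processing (chromosome 9, 35657750 to 35658019, hg38). It had 85, 21 and 83 counts with NTP and 154, 147 and 91 with no NTP, or 4341, 3191 and 716 CPM against 14605, 17506 and 1146 CPM. It was lower with NTP in 3 of 3 repeats, and the group ranges overlapped only through the deep repeat 3. Its log2 fold change was -1.11 (SE 0.341) with an adjusted p of 0.103 in edgeR's quasi-likelihood test with the repeat as a block. This adjusted p was the smallest of the 68 genes that the filter on low counts kept. Over the 9190 genes with 10 or more counts, edgeR's adjusted p for RMRP was 0.207 and not the smallest. In the main set of alternatives, RMRP's adjusted p was 0.0473 with DESeq2's size factors in edgeR. Without repeat 1 it was 7.78e-06 in edgeR, with a log2 fold change of -1.46. It was 0.942 in edgeR without repeat 2 and 0.481 without repeat 3. With no replicate block edgeR gave 0.998, and DESeq2 with the block gave 0.883. RN7SK, the scaffold of the complex that holds the elongation factor P-TEFb inactive, was not lower with NTP in every repeat (chromosome 6, 52995620 to 52995951). It had 46, 10 and 122 counts with NTP and 14, 78 and 158 with no NTP, which is 2349, 1520 and 1052 CPM against 1328, 9289 and 1989 CPM. It was higher with NTP in repeat 1 and lower in repeats 2 and 3, and its log2 fold change of -0.45 became -1.55 without repeat 1 and 0.02 without repeat 2. RN7SL1, the RNA of the signal recognition particle, had 54, 1 and 3 counts with NTP and 5, 0 and 0 with no NTP. In CPM it was higher with NTP in 3 of 3 repeats, opposite to the class, on few counts in repeats 2 and 3. Over the 9190 genes its log2 fold change was 3.17 (SE 0.799, edgeR adjusted p = 0.202). That was the smallest adjusted p of the fit, shared with AHNAK. RN7SL2, a near-identical copy of RN7SL1, had 54, 0 and 4 counts with NTP and 13, 1 and 7 with no NTP. Reads of the copies may be split between them. RPPH1, the RNA of RNase P, had 14, 1 and 4 counts with NTP and 6, 2 and 1 with no NTP. RN7SL1 thus stood highest in 1 library, repeat 1 with NTP.

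Ribosomal RNA, the product of polymerase I, did not move one way. It held 4.42%, 3.08% and 0.907% of counts with NTP and 4.03%, 3.48% and 1.11% with no NTP, a mean difference of -0.0678 ± 0.409 points (SD, n = 3, exact sign-flip p = 0.75). RNA45S5, the precursor, had 365, 28 and 686 counts with NTP and 153, 30 and 643 with no NTP. RNA28S5, the large subunit RNA cut from it, had 496, 175 and 357 counts with NTP and 270, 262 and 219 with no NTP. The 2 share sequence, so their split is uncertain. RNA18S5 had at most 19 counts. Both leading members passed the filter of the main fit, with log2 fold changes of 0.51 (SE 0.459) and 0.44 (SE 0.426) and an adjusted p of 0.820 each in edgeR's test.

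Antisense long non-coding RNA held 8.91%, 10.9% and 3.06% of counts with NTP and 18.5%, 11.3% and 3.23% with no NTP. It was lower with NTP in 3 of 3 repeats, with differences of -9.61, -0.374 and -0.166 points, but the intervals were apart only in repeat 1. The mean difference of -3.38 points was -0.270 without repeat 1 and -1.53 without the 10 most counted genes. VIM-AS1, which overlaps the start of VIM (chromosome 10, 17214239 to 17229985), decided the size of that gap. It was the most counted gene of repeat 1 in both groups, with 596 of the counts with NTP (3.04%) and 1043 with no NTP (9.89%). In repeat 2 it had 103 and 162 counts and in repeat 3 it had 143 and 145, with and without NTP, and its log2 fold change was -0.40 (SE 0.452, edgeR adjusted p = 0.820). Without VIM-AS1 the class held 5.86%, 9.31% and 2.94% with NTP and 8.62%, 9.32% and 3.05% with no NTP, still lower in 3 of 3 repeats. MIF-AS1 had 23, 10 and 23 counts with NTP and 50, 17 and 19 with no NTP.

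Counts of antisense genes were set beside those of the gene they are named for in 979 pairs. The antisense member held 66.6%, 68.5% and 37.5% of the counts of these pairs with NTP, and 81.8%, 66.6% and 38.5% with no NTP. The difference was -15.2, 1.88 and -0.948 points, so repeats did not point one way (exact sign-flip p = 0.75). Without the VIM pair the shares were 57.1%, 65.2% and 36.6% with NTP and 67.8%, 62.3% and 37.1% with no NTP. An antisense share above that of the sense gene in repeats 1 and 2 was thus present in both groups. The kit marks strand, but the sources used here do not give the strand setting of the counting, so reads of overlapping sense and antisense genes cannot be told apart.

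The small RNA classes held few counts. H/ACA and Cajal body RNAs, many of which guide pseudouridylation, held 0.710%, 0.122% and 0.0224% with NTP and 0.417%, 0.0834% and 0.0264% with no NTP, higher with NTP in repeats 1 and 2 and lower in repeat 3. SNORA73A had 52, 1 and 0 counts with NTP and 6, 1 and 1 with no NTP, SCARNA12 had 41, 0 and 1 against 18, 1 and 0, and SCARNA2 had 14, 1 and 3 against 7, 0 and 4. These RNAs were therefore concentrated in repeat 1 of both groups. C/D small nucleolar RNAs, many of which guide ribose methylation, held 0.0664%, 0.304% and 0.0681% with NTP and 0.0854%, 0.310% and 0.103% with no NTP, lower in 3 of 3 repeats with intervals apart in none. SNORD3A, which takes part in pre-rRNA cleavage, had 2, 2 and 8 counts with NTP and 0, 0 and 5 with no NTP, SNORD50A had 0, 2 and 10 against 0, 4 and 12, and SNORD101 had 1, 4 and 4 against 0, 4 and 6.

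Spliceosomal and other small nuclear RNAs held 0.0306%, 0.0304% and 0.0285% with NTP and 0.0285%, 0.0715% and 0.0290% with no NTP. RNU2-2P, their most counted member, reached 8 counts in 1 library. MicroRNA genes held 0.419%, 0.410% and 0.326% with NTP and 0.436%, 0.369% and 0.501% with no NTP. MIR7641-2 made up part of the gap in repeat 3, with 33 counts with NTP and 132 with no NTP, and had 0 counts in all libraries of repeats 1 and 2. MIR1282 had 27, 1 and 1 counts with NTP and 18, 7 and 2 with no NTP, and MIR3661 had 14, 2 and 11 against 5, 2 and 5. Other long non-coding RNA held 4.34%, 6.69% and 3.20% with NTP and 5.28%, 6.05% and 3.05% with no NTP, without one direction. MALAT1 and NEAT1, nuclear long non-coding RNAs, had 36, 4 and 18 and 9, 0 and 39 counts with NTP, against 8, 7 and 8 and 0, 4 and 31 with no NTP.

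Libraries of different repeats were mostly farther apart in composition than the 2 libraries of 1 repeat. As a measure of distance between 2 libraries, the absolute differences of the class shares were summed and divided so that 100 points would mean no class in common. The library with NTP and its partner lay 12.0, 4.16 and 0.725 points apart in repeats 1, 2 and 3. Libraries of the same group but different repeats lay 5.74 to 15.9 points apart with NTP and 8.21 to 24.1 points apart with no NTP, so only the pair of repeat 1 reached into these ranges. In repeat 3, by far the deepest, the libraries with and without NTP were closest in composition.

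At equal depth, more genes were found with NTP in each repeat. When each library was reduced to 6581 counts, the total of the smallest, 3555, 2926 and 5136 genes were expected to keep a count with NTP, against 3001, 2822 and 5046 with no NTP. The group ranges overlapped, since both libraries of repeat 3 lay above all others. Within repeats the gain was 554, 104 and 90.3 genes, which is 18.5%, 3.69% and 1.79% of the number with no NTP, or 249 ± 264 genes (SD, n = 3). The exact sign-flip test gave p = 0.25, its smallest value. When each pair was reduced only to its smaller total, the gains were 748.9, 104 and 487 genes. The mean gain was 147 genes without ribosomal RNA genes and the 10 most counted genes, and 97.2 without repeat 1. Without any reduction, the library with NTP had 6948, 2926 and 19178 genes with a count and the library with no NTP had 4108, 3285 and 17370, so in repeat 2 the order followed the depth.

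**Figure D2:**
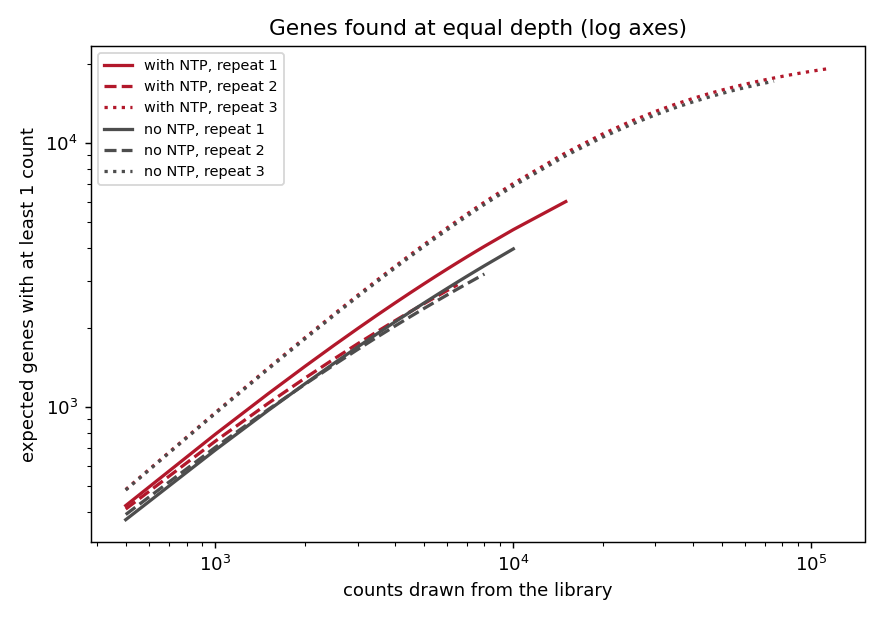
Expected number of genes with at least 1 count (y axis, log scale) against the number of counts drawn from the library (x axis, log scale), for libraries labelled hNABP2 KO with NTP (red) and no NTP (grey), with line styles for repeats. Both curves of repeat 3 run above the rest and nearly together, 5136 and 5046 genes at 6581 counts, and the pair of repeat 1 is the widest apart.

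Most of the added genes were protein-coding. At 6581 counts, protein-coding genes numbered 3077, 2410 and 4558 with NTP and 2556, 2312 and 4478 with no NTP, a gain of 521, 97.6 and 80.1. Other long non-coding RNA genes numbered 119, 117 and 174 with NTP and 92.4, 108 and 163 with no NTP, also higher in 3 of 3 repeats. Antisense genes numbered 182, 214 and 155 with NTP and 193, 196 and 160 with no NTP, without one direction. Counting only genes with at least 2 counts left 1082, 1125 and 1091 genes with NTP and 923, 1020 and 1116 with no NTP, which turned the order in repeat 3.

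Counts were less concentrated with NTP. The 10 most counted genes of each library held 10.6%, 9.69% and 1.60% of counts with NTP and 19.3%, 12.7% and 2.13% with no NTP, with differences of -8.70, -3.00 and -0.534 points (exact sign-flip p = 0.25, the smallest possible). The mean of -4.08 points was -1.77 without repeat 1. The 100 most counted genes held 23.0%, 26.1% and 4.12% with NTP and 33.8%, 30.7% and 4.91% with no NTP. VIM-AS1 led both libraries of repeat 1, RNA28S5 both libraries of repeat 2 and RNA45S5 both libraries of repeat 3. By mean share, the 5 leading genes with NTP were RNA28S5, VIM-AS1, RNA45S5, C10orf55 and COL5A1. With no NTP, RMRP took the place of COL5A1. C10orf55 had 110, 99 and 81 counts with NTP and 123, 100 and 51 with no NTP.

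Among protein-coding genes, those with a span under 10 kb held 23.2%, 28.4% and 20.0% of protein-coding counts with NTP and 24.9%, 28.9% and 20.2% with no NTP. The share was lower with NTP in 3 of 3 repeats, with differences of -1.77, -0.417 and -0.229 points (exact sign-flip p = 0.25), a mean of -0.807, or -0.323 without repeat 1. Genes over 100 kb held 17.1%, 15.3% and 20.0% with NTP and 15.3%, 15.3% and 19.7% with no NTP, higher in repeats 1 and 3. Genes of 10 to 100 kb differed by at most 0.439 points.

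No gene passed the test of NTP against no NTP. edgeR's quasi-likelihood test, with the repeat as a block and Benjamini-Hochberg adjustment at 0.05, called 0 of 68 genes (0%), and 6 had an unadjusted p under 0.05. DESeq2 and limma voom on the same genes called 0 as well, with 2 and 6 unadjusted p under 0.05. The filter on low counts left 68 of the 21151 genes with a count. A wider set of 9190 genes with 10 or more counts over the 6 libraries gave 0 calls (0%) and 49 genes with an unadjusted p under 0.05 (0.533%). Without repeat 1, 602 genes were tested and 3 were called, all lower (0.498%), namely RMRP, RN7SK and MIR7641-2, and with DESeq2's size factors 1 of 68 was called (1.47%), RMRP. No other difference in a single gene was detectable at this depth in these fits.

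The fit scales each library, by TMM, to its counts in the 68 tested genes and not to its full total, unlike CPM. By the sign of this fit, the 10 genes with the smallest p among those above 0 were MMP24, HCFC1R1, MALAT1, LOC100130093, LOC100289511, ZBTB25, CIDEB, LOC100652758, MXD3 and DALRD3, none of which passed. In CPM, CIDEB, LOC100652758 and DALRD3 were higher with NTP in 1 repeat of 3, and the other 7 in 2 or 3. MMP24, a membrane-bound matrix metalloproteinase, had 15, 6 and 17 counts with NTP and 2, 7 and 4 with no NTP, a log2 fold change of 1.57 (SE 0.534, edgeR adjusted p = 0.116). HCFC1R1, a binding partner of the cell cycle regulator HCFC1, had 29, 10 and 43 counts with NTP and 11, 5 and 24 with no NTP, a log2 fold change of 1.04 (SE 0.412, edgeR adjusted p = 0.280). Both were higher in CPM with NTP in 3 of 3 repeats. The log2 fold changes of the other 8 lay between 0.47 and 1.16.

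The 10 genes with the smallest p among those below 0 in the fit, again none past the threshold, were RMRP, LOC100128494, MIF-AS1, LOC100289580, RN7SK, THAP3, ABALON, ZSWIM8-AS1, VIM-AS1 and JMJD8. Apart from RMRP, their log2 fold changes lay between -0.50 and -0.39. LOC100128494 had 37, 21 and 24 counts with NTP and 40, 42 and 37 with no NTP. Of the 68 genes, 21 were lower in CPM with NTP in 3 of 3 repeats (30.9%) and 3 were higher (4.41%), and no gene had its groups apart (0%). Over the 9190 genes with 10 or more counts the 2 directions were close, 3.61% lower and 4.52% higher in 3 of 3 repeats, with groups apart in 1.32% and 1.59%.

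**Figure D3:**
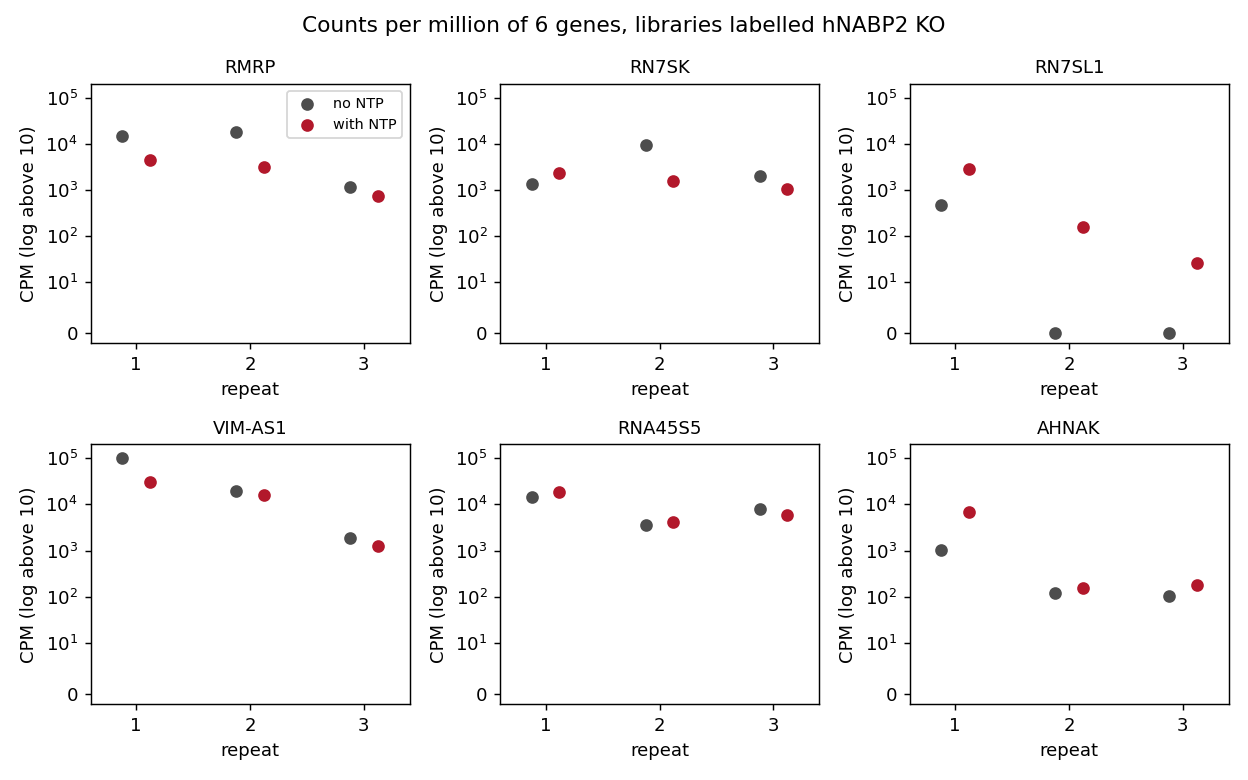
CPM (y axis, linear below 10 and log above) of 6 genes by repeat (x axis) in the libraries labelled hNABP2 KO with NTP (red) and no NTP (grey), 1 point a library. RMRP lies lower with NTP in every repeat, 4341, 3191 and 716 against 14605, 17506 and 1146 CPM, while RN7SK changes order between repeats and the largest gap of AHNAK and RN7SL1 is in repeat 1.

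Genes of abundant, stable messenger RNA make up much of the stored RNA of a cell. The 18 members of that list held 1.43%, 0.0912% and 0.219% of counts with NTP and 0.654%, 0.107% and 0.219% with no NTP, higher with NTP in repeat 1 by 2.19-fold. HSP90AA1, a cytosolic chaperone, had 41, 0 and 18 counts with NTP and 2, 0 and 11 with no NTP. HSP90AB1 had 43, 0 and 14 against 4, 0 and 17, and the tubulin gene TUBB had 17, 2 and 16 against 19, 1 and 9. The 88 cytosolic ribosomal protein genes held 1.38%, 0.198% and 0.511% with NTP and 0.597%, 0.202% and 0.439% with no NTP. RPS14 had 32, 1 and 3 counts with NTP and 2, 0 and 2 with no NTP, RPL27A had 11, 0 and 38 against 0, 4 and 6, and RPL11 had 18, 0 and 6 against 10, 0 and 5. In both lists the size of the gap came from repeat 1, and 0 members passed edgeR's test over all genes.

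Among the 9190 genes, whose median log2 fold change was 0.07 with 52.7% of genes above 0, 63 ribosomal protein genes were tested, with a median of 0.48 and 43 above 0. The 18 stable messenger RNA genes had a median of 0.29 with 13 above 0, and the 22 tested markers of mesenchymal cells a median of 0.46 with 17 above 0. In CPM, 17 of these markers were higher with NTP and 3 lower in repeat 1, against 9 higher and 13 lower in repeat 3. The 26 genes of cytoskeleton and matrix had a median of 0.30 with 18 above 0, and held 2.75%, 1.88% and 0.545% of counts with NTP and 2.02%, 2.203% and 0.564% with no NTP. AHNAK, a very large scaffold protein, had 135, 1 and 21 counts with NTP and 11, 1 and 8 with no NTP, with a log2 fold change of 2.06 (SE 0.510, edgeR adjusted p = 0.202 over the 9190 genes). PLEC, the cytolinker plectin, had 44, 9 and 76 counts with NTP and 35, 27 and 71 with no NTP. FN1 had 35, 0 and 19 against 7, 1 and 8, and THBS1, another secreted matrix protein, 53, 0 and 14 against 14, 5 and 11.

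Genes with short-lived or regulated transcription gave few counts. The 16 immediate early genes, such as JUN, FOSL1 and JUND, held 0.0664%, 0.0304% and 0.143% with NTP and 0.0569%, 0.0357% and 0.137% with no NTP, and 12 of them were tested with a median log2 fold change of 0.14. JUN had 2, 1 and 18 counts with NTP and 1, 0 and 10 with no NTP. The 26 genes of pausing and elongation held 0.240%, 0.122% and 0.222% with NTP and 0.171%, 0.226% and 0.271% with no NTP, and 25 were tested with a median of 0.01. HEXIM1, which inhibits P-TEFb together with RN7SK, had 3, 0 and 25 counts with NTP and 0, 0 and 15 with no NTP. HEXIM2 had 3, 5 and 18 against 2, 10 and 18, and MEPCE, the capping enzyme of RN7SK, had 2, 0 and 14 against 1, 1 and 23.

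The 17 genes of SOSS, the complex of hNABP2, and of Integrator, which processes small nuclear RNA, held 0.0664%, 0.0608% and 0.120% with NTP and 0.171%, 0.167% and 0.110% with no NTP, lower in repeats 1 and 2 and higher in repeat 3. Of the 12 tested, 5 were above 0, with a median log2 fold change of -0.15. INTS1 had 2, 0 and 20 counts with NTP and 1, 7 and 19 with no NTP. Histone genes that are transcribed in S phase held 0.322%, 0.106% and 0.0992% with NTP and 0.218%, 0.0834% and 0.0982% with no NTP, higher in 3 of 3 repeats. Their counts were 63, 7 and 115 with NTP and 23, 7 and 78 with no NTP. The order in repeat 2 thus rests on the library totals alone, and the ratio in repeat 3 was only 1.01. HIST2H2AB had 21, 3 and 4 counts with NTP and 1, 0 and 6 with no NTP, so it did not follow the list in repeat 3, and HIST1H1E had 9, 0 and 4 against 4, 3 and 8.

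The authors' peak lists of the 3 libraries with NTP gave a second view of where run-on reads gathered. Peak lists of libraries with no NTP were not used here, so no peak is compared with background other than the peak caller's own. The lists hold 243, 338 and 95 peaks in repeats 1, 2 and 3. Of the peaks of repeat 1, 6.17% overlapped a peak of repeat 2 and 1.23% one of repeat 3, by 1 bp or more. Of those of repeat 2, 4.44% overlapped repeat 1 and 4 of the 338 overlapped repeat 3, and of those of repeat 3, 4.21% overlapped each of the others. Peaks found in all 3 repeats lay on RN7SL1 and on the ribosomal precursor gene RNA45SN2 and nowhere else.

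**Figure D4:**
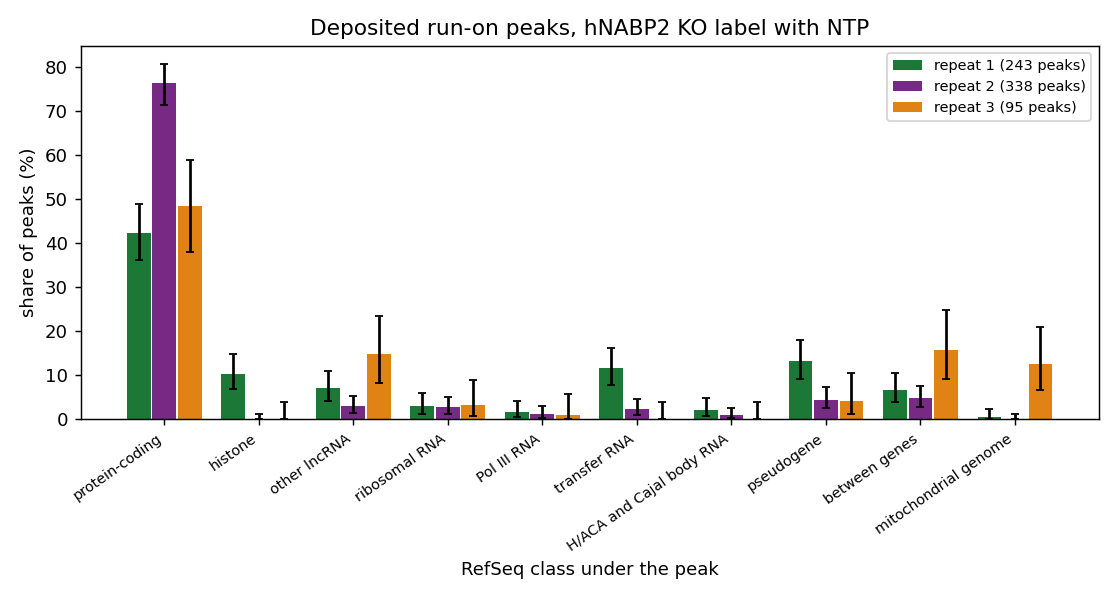
Share of the deposited run-on peaks (y axis, percent) by the RefSeq class of the gene under them (x axis), for the 3 libraries labelled hNABP2 KO with NTP (colours), with 95% Clopper-Pearson intervals that cover counting error only. Histone peaks appear in repeat 1 alone, 25 of 243, and mitochondrial peaks are 12 of 95 in repeat 3.

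The class of gene under the peaks differed between repeats. In repeat 1, 25 peaks lay on histone genes, 28 on transfer RNA genes and 4 on other polymerase III genes. In repeat 2, 258 of 338 peaks lay on protein-coding genes, with a median −log10 q of 1.66 by the authors' values, and 8 lay on transfer RNA genes and 0 on histone genes. In repeat 3, 12 of 95 lay on the mitochondrial genome and 0 on histone or transfer RNA genes. Repeat 3 had the most counts and the fewest peaks.

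The counts and the peaks did not match for many genes, and the reason was not tested. The RN7SL1 peak of repeat 2 had a −log10 q of 220 and a fold of 12.4, while the table gives RN7SL1 1 count in that library. VTRNA1-1, a vault RNA, had a peak in repeat 1 with a fold of 11.6, and its count there was 0. Of genes under a peak that the table lists, 60 of 138 in repeat 1, 206 of 263 in repeat 2 and 2 of 47 in repeat 3 had 0 counts in the library the peak came from. Genes under the peaks of repeat 1 held 2.41% of counts with NTP in that repeat and 0.854% with no NTP, those of repeat 2 held 1.31% and 0.988%, and those of repeat 3 held 0.281% and 0.154%. The peaks came from the libraries with NTP, so this order is a description and carries no test.

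The histone peaks of repeat 1 are the clearest group outside structural RNA, and the bases before their start sites are printed for H4C2, H3C3 and H4C5, the strongest by −log10 q that matched the RefSeq promoter table (GRCh38.p14, 120 bases up to the start site, 5′ to 3′ on the gene's strand). H4C3, whose peak had a −log10 q of 120 by the authors' values, ranked behind H4C2 and is named only. Capitals mark TATAAA, the core promoter motif, and CCAAT, the motif bound by NF-Y, both searched on both strands.
H4C2: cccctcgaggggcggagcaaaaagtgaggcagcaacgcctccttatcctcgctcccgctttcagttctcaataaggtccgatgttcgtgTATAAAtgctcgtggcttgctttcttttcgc
H3C3: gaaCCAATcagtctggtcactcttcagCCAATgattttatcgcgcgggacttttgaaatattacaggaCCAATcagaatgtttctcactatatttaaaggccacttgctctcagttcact
H4C5: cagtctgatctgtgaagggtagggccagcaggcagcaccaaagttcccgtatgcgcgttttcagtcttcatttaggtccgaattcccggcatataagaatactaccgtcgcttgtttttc
The window of H4C2 is chr6:26027284-26027403 on the minus strand, that of H3C3 is chr6:26045264-26045383 on the plus strand and that of H4C5 is chr6:26204490-26204609 on the plus strand. H4C2 and H4C5 encode histone H4, and H3C3 encodes histone H3. The peaks began 65, 31 and 68 bases after the start sites of H4C2, H3C3 and H4C5 and ended 357, 416 and 377 bases after them. Their −log10 q were 145, 54.8 and 47.3 by the authors' values.

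H4C2 held 1 TATAAA and no CCAAT, H3C3 held 3 CCAAT and no TATAAA, and H4C5 held neither of these letter strings. The table holds 25 promoters for 22 of the 25 histone genes with a peak in repeat 1, and TATAAA stood in 19 of these promoters (76.0%) and CCAAT in 22 (88.0%). In 43 promoters of 42 such histone genes without a peak, the numbers were 19 (44.2%) and 35 (81.4%). In all 35116 promoters of the table, windows of the same length held TATAAA in 5.63% and CCAAT in 20.4%. The table names these genes by their older symbols, and HIST1H4B, HIST1H3C and HIST1H4E (H4C2, H3C3 and H4C5) had 1, 1 and 0 counts in repeat 1 with NTP.

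The difference made by NTP was set beside that in the WT libraries of the same cell line, 3 with and 3 without NTP. Equal depth here was 5272 counts, the smallest total of the 12 libraries. Genes found at that depth and the protein-coding share were higher with NTP in all 3 repeats of both genotypes. In WT repeat 2 the gene numbers were nearly equal, 2408 with NTP and 2402 with no NTP. For the protein-coding share the mean log2 ratio was 0.10 with the hNABP2 KO label and 0.14 in WT, and for the antisense share it was -0.39 and -0.32. The polymerase III share was lower with NTP in all 3 repeats of the hNABP2 KO libraries and in 2 of 3 in WT. Ribosomal RNA was lower with NTP in all 3 WT repeats, with log2 ratios from -1.23 to -0.27, and mixed with the hNABP2 KO label, from -0.29 to 0.13. The exact permutation test of 3 repeats against 3 gave p of 0.2 or more for each of the 12 measures, and 0.873 or more after adjustment, where 0.1 is the smallest it can give.

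**Figure D5:**
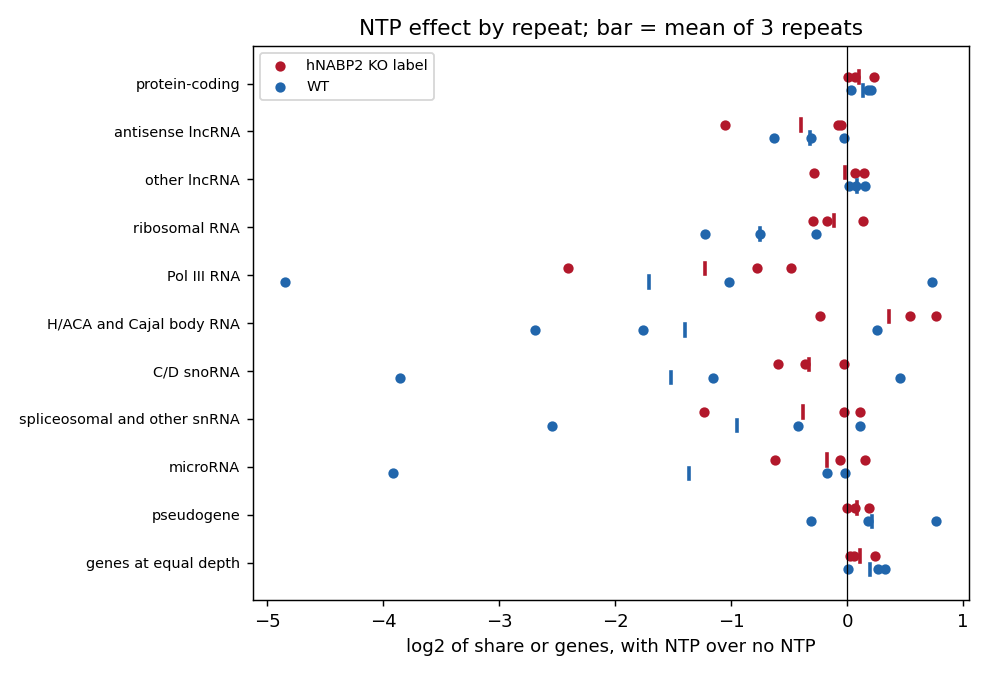
Log2 ratio of class share, or of genes found at equal depth, with NTP over no NTP (x axis) for each measure (y axis), in libraries labelled hNABP2 KO (red) and WT (blue). Points are the 3 repeats and bars their mean. For the protein-coding share all 6 points lie above 0, and the point farthest to the left is the Pol III share of WT repeat 3 at -4.85.

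Gene by gene, edgeR's test of the interaction of NTP and genotype called 0 of 149 genes (0%), and 5 had an unadjusted p under 0.05. RMRP had an interaction log2 fold change of -1.26 (SE 0.646, edgeR adjusted p = 0.883), and RN7SL1 one of 3.18 (SE 1.07, edgeR adjusted p = 0.414), a smallest adjusted value that it shared with HSP90AB1. A difference between the genotype labels in the effect of NTP was thus not shown for any class or gene tested here.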

How the data were processed

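Counts per gene symbol are raw, as the authors deposited them, with no normalization. The deposited peak lists give for each peak a fold (a ratio over local background), a −log10 p and a −log10 q, in the layout MACS2 writes. Per the submitters' processing notes, cutadapt 1.18, Bowtie2 2.3.5, SAMtools and MACS2 2.2.1 were used with hg38. The sources used here do not give the counter, its strand setting or the control of the peak calling. The groups, genes and lists were chosen with earlier results of these data known.

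Gene classes came from RefSeq GRCh38.p14 for 23749 genes matched by symbol and 1536 by a unique synonym, and 1190 were unmatched. In the table, 28 symbols had turned into dates (0.178% of counts), and 0 mitochondrial genes are listed. Shares carry 95% Clopper-Pearson intervals. Genes at equal depth are exact hypergeometric expectations. Gene tests used edgeR 4.0.16 (filterByExpr, TMM, quasi-likelihood, repeat number as a block, Benjamini-Hochberg at 0.05), and log2 fold changes come from it. After filterByExpr, library sizes were reset to the counts of the genes kept, while fits of genes with 10 or more counts used full totals. Log2 fold changes of these fits are therefore on different scales, -0.40 and -0.75 for VIM-AS1. Alternatives used DESeq2 1.42.0 and limma 3.58.1 in R 4.3.3. Permutation tests used Python 3.11.15 and SciPy 1.17.1. The scripts were tested on simulated data.

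Libraries were paired by repeat number, as their labels give it. Over 9190 genes, deviations from the group means correlated at 0.362, 0.313 and 0.418 for the same number and at -0.308 to -0.053 for different numbers, across genes, which are not independent. Deviations from a group mean sum to 0 for each gene, so the negative values follow in part from the positive ones. What the libraries of a pair share, such as depth or processing, was not tested. A 0 in a library allows up to 25.9 to 456 CPM (3 counts, counting error only). The genes named are, in each direction, the 10 with the smallest p, since none passed, then NABP2 and NABP1, the 5 with the largest mean share in each group, and the 3 most counted of each structural or small RNA class and each list. Of these, 1 gene is not reported here. VIM, RPPH1, RN7SL1, the other named histone genes, EPCAM and VTRNA1-1 were chosen after their values were seen.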

Additional observations from a re-analysis of the deposited data

Results flagged for a closer look

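In 3 of 84 named genes (3.57%) CPM moved one way with NTP in every repeat labelled hNABP2 KO and the other way in every WT repeat, as it did in 36 of the 13830 genes with 10 or more counts over the 12 libraries (0.26%). The named genes include the most counted ones, some picked by their p in the hNABP2 KO contrast, and VIM, chosen after its values were seen. The shares are thus not alike in depth or in choice of genes, and setting them side by side tests nothing. AHNAK had 135, 1 and 21 counts with NTP and 11, 1 and 8 with no NTP with the hNABP2 KO label, and 27, 1 and 16 against 32, 1 and 2 in WT. Its mean CPM difference exceeded that of WT by 2403, and repeat 2 rests on 1 count in each library. VIM had 17, 3 and 15 against 5, 1 and 9 counts, and 9, 0 and 36 against 16, 1 and 31 in WT, and its CPM difference exceeded that of WT by 1104. INTS6, an Integrator subunit, had 2, 0 and 15 against 2, 1 and 16 counts, and 2, 1 and 20 against 0, 0 and 2 in WT, and its CPM difference was below that of WT, at -211. In edgeR's interaction test AHNAK had an adjusted p of 0.487. VIM and INTS6 passed only the filter of 10 or more counts, where the adjusted p in edgeR was 0.980 for all 3 genes.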

How the results depend on the processing

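The repeat block decided how close genes came to the threshold, not whether any passed: with no replicate block 0 genes were called and the smallest adjusted p was 0.954, against 0.103 with the pairing. With DESeq2's size factors in edgeR 1 gene was called (RMRP, log2 fold change -1.21, adjusted p 0.0473), and leaving out 1 repeat gave 0 to 3 calls, where the 3 (RMRP, RN7SK and MIR7641-2, all lower) came without repeat 1, also with 10 or more counts, an alternative chosen after seeing the data. The other alternatives gave 0 calls. Over repeats left out, log2 fold changes turned sign for CIDEB (-0.22 to 0.91), LOC100652758 (-0.045 to 0.47), MXD3 (-0.059 to 0.55), DALRD3 (-0.078 to 0.81) and RN7SK (-1.55 to 0.025), and with 10 or more counts for CIDEB (-0.38 to 0.97), MXD3 (-0.21 to 0.62), DALRD3 (-0.43 to 0.90) and RN7SK (-1.72 to 0.093). Mean differences in share did so, in percentage points, for ribosomal RNA (-0.298 to 0.0947), other long non-coding RNA (-0.393 to 0.396, and 0.113 with classes from symbols alone), small nuclear RNA (-0.0208 to 0.00085), microRNA (-0.0962 to 0.0118) and genes of 10 to 100 kb (-0.0676 to 0.211). Without the 10 most counted genes, RMRP and RN7SK among them, the polymerase III difference was 0.134 points instead of -0.960. With a −log10 q of 5 or more, peak overlap was 10.5% (repeat 1 over 2), 18.0% (2 over 1) and 12.5% (3 over 1 and 3 over 2). The causes were not tested. Depth limits all of this: the smaller libraries hold under 20000 counts, and 3 pairs cannot give an exact p below 0.25.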
